A study of Mus musculus with 9 samples.

Results

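The expression of 33 genes of the cadherin superfamily, the cadherins and the protocadherins that lie outside the clustered protocadherin loci, was measured in the striatum of mouse embryos at E17.5. These 33 were taken from the 44886 gene identifiers counted, by gene name and family. They comprise 4 type I cadherins, 11 type II cadherins, the GPI-anchored Cdh13, 3 delta-1 and 5 delta-2 protocadherins, 2 other protocadherins, 3 seven-pass Celsr genes and 4 members of the Fat and Dachsous group. Of the 33, 31 passed a filter on low counts together with 16368 genes in all, and the remaining 2, Cdh1 and Celsr3, were too low to test.

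The series asked how striatal gene expression changes when the transcription factor Ebf1, which marks the direct pathway neurons, is removed by either of 2 Cre drivers. It holds 9 striatal libraries, labelled as coming from individual embryos, with 3 per genotype. The genotypes are Control, Islet1Cre;Ebf1fl/- (here the Islet1Cre mutants) and Dlx5/6::Cre;Ebf1fl/- (here the Dlx5/6::Cre mutants). Both mutants carried a floxed and a null Ebf1 allele. In the Islet1Cre line, recombination takes place in differentiated direct pathway neurons and in cholinergic interneurons. In the Dlx5/6::Cre line it takes place in all spiny projection neurons, from the subventricular zone onwards, and in all interneurons. The study reports that striatal interneurons do not express Ebf1. Fathers carried Cre and a null Ebf1 allele and mothers were Ebf1fl/fl, so every embryo, controls included, inherited a floxed allele, and the study used heterozygous embryos as controls. Which alleles each Control embryo carried is not given in the labels. The labels give C57BL/6 for all embryos, whereas the methods state that the Islet1Cre line was kept on a B6D2F1/J background.

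Cadherins are transmembrane proteins whose extracellular repeats bind calcium and adhere to cadherins on the facing cell. Classical type I and type II cadherins couple through catenins to actin, and neurons that carry matching sets tend to sort together. The delta protocadherins adhere more weakly and recruit actin regulators or phosphatases through their short cytoplasmic motifs. Celsr, Fat and Dachsous are giant cadherins of planar cell polarity. In the embryonic striatum, such molecules are known for the growth of axons. Whether they sort spiny projection neurons was not tested here.

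The libraries held 16548083 to 41507049 assigned reads each. Spiny projection neuron markers were abundant everywhere, with a summed normalised read count of 90726 to 111807 for 7 genes. Ebf1 itself did not separate the groups, at 7945, 14208 and 9696.5 normalised read counts in the controls, 15343, 13866 and 13210.0 in the Islet1Cre mutants and 11774, 13079 and 15312 in the Dlx5/6::Cre mutants. The count covers the whole gene, floxed part or not, and so does not check the labels. In stained sections at E17.5, the study found no Ebf1 protein in the striatum of either mutant. All directions given here are those of the libraries as labelled. One library stood apart. Dlx5/6::Cre replicate 1 held a summed count of 46318 for 8 progenitor and radial glia markers, against 19416 to 25791 in the other 8 libraries, and 6823 for 8 cortical excitatory neuron markers. The cortical sum was also raised in the other Dlx5/6::Cre mutants, at 3169 and 3437, against 1204 to 2904 in the 6 controls and Islet1Cre mutants. Control replicate 3 and Islet1Cre replicate 3 each held both Xist and Y-linked transcripts, and whether these libraries hold RNA of more than 1 embryo was not tested. Control 2 held Y-linked transcripts with Xist at only 3.3 normalised read counts. Control 1, Islet1Cre replicates 1 and 2 and all 3 Dlx5/6::Cre mutants held Xist at 10719 or more and no Y-linked marker above 1.4. Sex was thus unbalanced between the genotypes, and its part in the changes was not tested. The embryo codes begin with IE for Control 1 and 2 and all Islet1Cre mutants, and with D for Control 3 and all Dlx5/6::Cre mutants.

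Levels were compared between genes as RPKM, in which assigned reads are scaled by exon length and by the library total. In the controls, Cdh8, a type II cadherin, was the highest of the 33, at 37.1 ± 5 (SD, n = 3), above every control value of Cdh2. Cdh2, or N-cadherin, the adhesion molecule of neural progenitors and synapses, followed at 22.2 ± 3.6. Dchs1, the ligand of Fat4, stood at 21.1 ± 4.2 and overlapped with Cdh2. These 3 genes were followed by Cdh13 at 17.4 ± 0.76, Cdh24 at 16.6 ± 3.9, Pcdh10 at 13.7 ± 2.4, Pcdh1 at 13.3 ± 2.1, Celsr2 at 12.7 ± 0.76 and Cdh4 at 11.2 ± 1.5, each of which overlapped with its neighbour in this order. Below Cdh4, 9 genes from Fat1 at 7.83 ± 1.3 to Pcdh18 at 3.37 ± 0.24 formed a chain of overlapping levels. From Pcdh9 at 2.66 ± 0.42 down to Cdh6 at 0.437 ± 0.087, 12 more genes again overlapped one with the next, Cdh20 and Cdh7 among them at 1.95 ± 0.52 and 1.37 ± 0.21. Cdh3, at 0.158 ± 0.1, was the lowest of the tested genes, 236-fold below Cdh8.

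**Figure D1:**
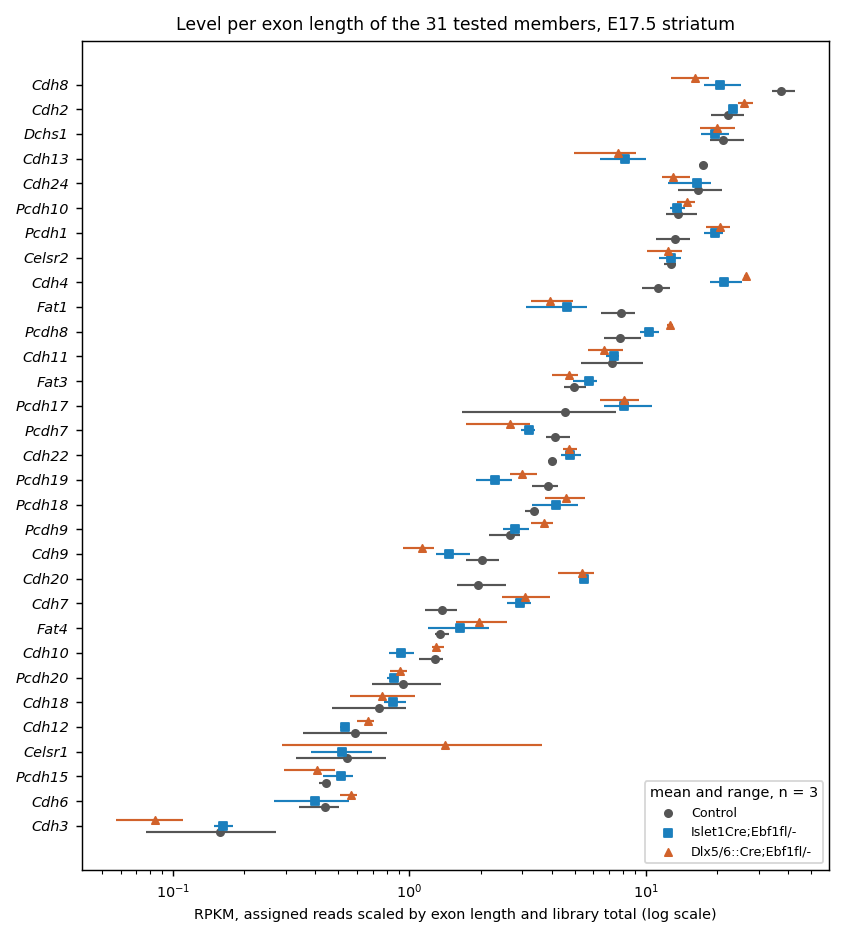
Level of the 31 tested cadherins and protocadherins, in RPKM on a log axis. Symbols are means of 3 embryos and lines run from the lowest to the highest embryo, with Control in grey circles, Islet1Cre mutants in blue squares and Dlx5/6::Cre mutants in orange triangles, and Cdh8 is at the top of the controls at 37.1 while Cdh3 is lowest at 0.158.

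Relative to the controls, 9 of the 31 tested genes passed the threshold in the mean of both mutants, set at an adjusted p below 0.05 in edgeR's quasi-likelihood test with Benjamini-Hochberg adjustment over all 16368 genes. Cdh4, Cdh7, Cdh20, Pcdh1 and Pcdh8 rose, and Cdh8, Cdh13, Pcdh19 and Fat1 fell. Over all genes tested, 2.76% passed in this comparison, 1.2% higher and 1.56% lower. In the Islet1Cre mutants alone, 6 of the 31 passed, 3 higher and 3 lower, where 0.971% of all genes did (0.47% higher and 0.501% lower). In the Dlx5/6::Cre mutants alone, 8 passed, 5 higher and 3 lower, where 2.39% of all genes did (1.05% higher and 1.34% lower). Both comparisons share the same 3 controls. The higher cortical marker sums of all 3 Dlx5/6::Cre mutants accompany the changes in that group, and their part in these was not tested. The median log2 fold change of the 31 in the mean of both mutants was 0.05, and that of all genes was 0.00. Without its sign, the median was 0.38 for the 31 and 0.12 for all genes.

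**Figure D2:**
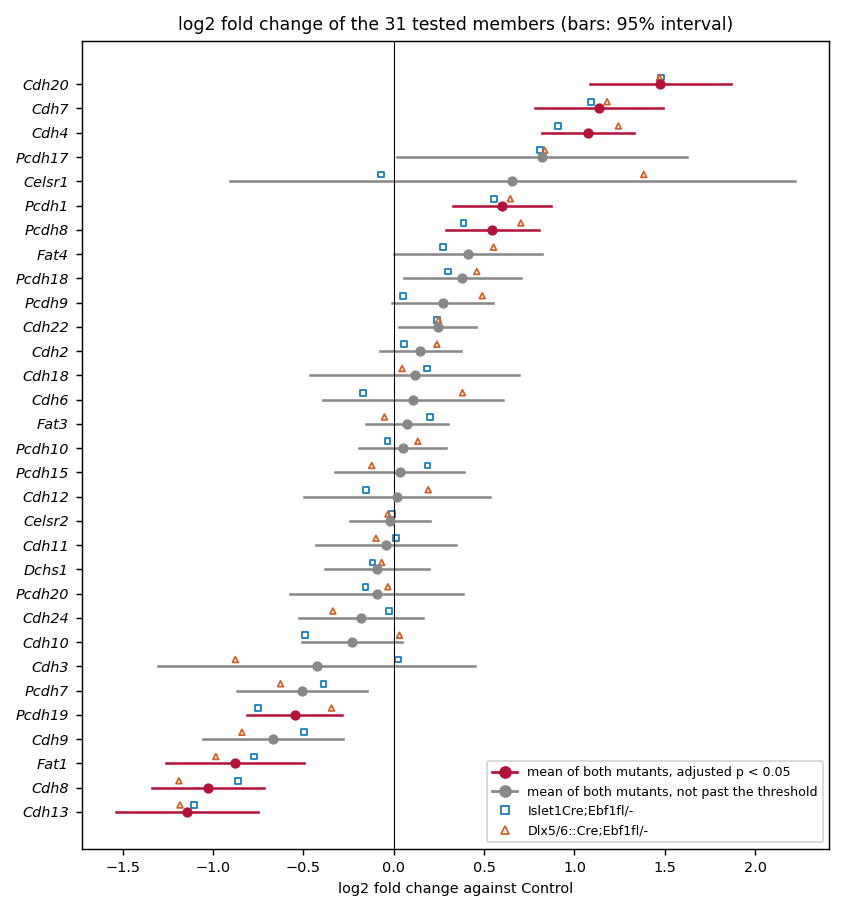
log2 fold change of each of the 31 tested genes against Control, with the mean of both mutants as filled circles, 95% intervals as bars, the Islet1Cre mutants as open squares and the Dlx5/6::Cre mutants as open triangles. Red marks the 9 genes past the threshold, from Cdh20 at 1.47 to Cdh13 at −1.15, and the wide bar of Celsr1 belongs to a gene that was high in a single embryo.

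Among the type I cadherins, Cdh4 rose and the others did not pass the test. Cdh4, or R-cadherin, binds itself and Cdh2 and is known for axon growth in the forebrain. It lies at chr2:179442431-179899373 on the plus strand of GRCm38 (ENSMUSG00000000305). The 3 controls held 2070.5, 2814 and 2512 normalised read counts, the Islet1Cre mutants 4419.8, 5459.9 and 4004, and the Dlx5/6::Cre mutants 5850.4, 5827 and 5836. All 6 mutants were above all 3 controls, and the Dlx5/6::Cre mutants were above the Islet1Cre mutants too. The fold change was 2.11 in the mean of both mutants (log2 1.08, SE 0.11, edgeR adjusted p = 0.001). It was log2 0.91 in the Islet1Cre mutants (SE 0.13, edgeR adjusted p = 0.012) and 1.24 in the Dlx5/6::Cre mutants (SE 0.13, adjusted p = 0.0013). In RNA from whole striatum, a change in the number of cells of a type and a change in RNA per cell cannot be told apart, here and for every gene below.

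Cdh2, the partner of Cdh4, ranged from 4490.1 to 6924 normalised read counts over the 9 embryos. Its log2 fold change was 0.15 in the mean of both mutants, with a 95% interval of −0.08 to 0.37, so that a rise of the size seen in Cdh4 lies outside the interval. Cdh3, or P-cadherin, held 7 to 38 raw reads per library and Cdh1, or E-cadherin, an epithelial cadherin, 0 to 5. Neither level allows a statement on a change.

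In the type II cadherins, 2 of 11 rose and 1 fell, and these 3 included both the lowest and the highest of the called genes by level. Cdh20 and Cdh7, adhesion molecules with regional expression in the developing brain, rose. Cdh8, which is known for marking subsets of forebrain neurons and their synaptic targets, fell. Cdh20 and Cdh7 lie 4986949 bases apart on chromosome 1, with 13 tested genes between them, of which 1 passed the threshold in the mean of both mutants.

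Cdh20 (ENSMUSG00000050840, chr1:104768529-104995481, plus strand) had the steepest rise of the 31. Controls held 203, 312 and 193 normalised read counts. In the Islet1Cre mutants it was 693, 656 and 632, and in the Dlx5/6::Cre mutants 516, 727 and 722. Every mutant embryo was above every control, and the ranges of both mutants overlapped. The fold change was 2.78 in the mean of both mutants (log2 1.47, SE 0.18, edgeR adjusted p = 0.0019), and log2 1.48 and 1.47 in the Islet1Cre and Dlx5/6::Cre mutants (edgeR adjusted p = 0.0091 and 0.0042).

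Cdh7 (ENSMUSG00000026312, chr1:109982431-110140157, plus strand) moved by a similar amount in both mutants. The controls held 345.5, 487.5 and 413 normalised read counts, the Islet1Cre mutants 803, 965.5 and 886 and the Dlx5/6::Cre mutants 742, 1190.1 and 894. The lowest mutant was well above the highest control. The log2 fold change was 1.14 in the mean of both mutants (SE 0.16, edgeR adjusted p = 0.0041), 1.09 in the Islet1Cre mutants (adjusted p = 0.022) and 1.18 in the Dlx5/6::Cre mutants (adjusted p = 0.007). When the 2 libraries with both Xist and Y-linked transcripts were left out, the adjusted p for the mean of both mutants was 0.062, the only alternative run in which Cdh7 lost this call.

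Cdh8 (ENSMUSG00000036510, chr8:99024471-99416471, minus strand), the most abundant of the 33 in the controls, fell. It held 7877, 8032 and 10119 normalised read counts in the controls. The Islet1Cre mutants held 4527, 4029 and 5806 and the Dlx5/6::Cre mutants 2980.2, 4325 and 4109. The highest mutant, Islet1Cre replicate 3, was below the lowest control. The fold change was 0.49 in the mean of both mutants (log2 −1.03, SE 0.14, edgeR adjusted p = 0.0038). The log2 fold change was −0.86 in the Islet1Cre mutants (edgeR adjusted p = 0.042) and −1.19 in the Dlx5/6::Cre mutants (adjusted p = 0.0053).

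Since Cdh20, Cdh7 and Cdh8 carried the largest changes among the type II cadherins in both directions, the sequence before their RefSeq starts was examined. RefSeq windows of 250 bases on GRCm38.p6 matched 24 of the 33 genes. The other 9 had no window and were not searched, the called genes Cdh4, Cdh13 and Pcdh1 among them. The median GC content of the windows found was 58.4%, against 52.4% over all 32851 windows. EBF proteins bind as dimers to a palindrome, and its core, CCCNNGGG, was searched on both strands. The core was present in 11.8% of all windows and in 3 of the 27 windows of these genes. With a T before it and an A after it, as in the full palindrome, it was present in 0.779% of all windows and in none of the 27. The core matches were in Cdh7, Cdh22 and Celsr2. A match describes letters and no binding was measured. The windows before Cdh20 and Cdh8 had no core match. Cdh7 has 3 RefSeq windows, of which 1 held the match, 92 bases before its start. That start lies inside the span of Cdh7 given above, so the match is within the annotated gene. Both windows, and a stretch of 30 bases around the match of Cdh7 with the core in capitals, read as follows from 5′ to 3′ on the strand of the gene:
Cdh20, chr1:104768270-104768519, plus strand: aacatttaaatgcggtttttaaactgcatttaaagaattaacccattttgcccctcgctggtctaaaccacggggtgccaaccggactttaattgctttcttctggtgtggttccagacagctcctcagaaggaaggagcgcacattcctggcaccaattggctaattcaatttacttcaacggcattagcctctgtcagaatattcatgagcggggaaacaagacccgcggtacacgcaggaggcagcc
Cdh8, chr8:99416472-99416721, minus strand: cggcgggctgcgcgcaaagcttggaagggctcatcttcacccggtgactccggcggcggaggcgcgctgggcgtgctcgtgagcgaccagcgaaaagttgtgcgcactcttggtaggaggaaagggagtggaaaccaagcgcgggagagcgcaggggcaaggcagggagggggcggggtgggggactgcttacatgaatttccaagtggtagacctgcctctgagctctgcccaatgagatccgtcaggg
Cdh7, chr1:109982797-109982826, plus strand: cattcaatgacCCCCAGGGtccttgtgccc

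The other 8 type II cadherins did not pass the test in any comparison. Cdh9, known for a role at hippocampal synapses, was low in all groups, at 181, 258 and 214 normalised read counts in the controls, 141, 135 and 189.7 in the Islet1Cre mutants and 100.4, 136 and 128 in the Dlx5/6::Cre mutants. Its log2 fold change in the mean of both mutants was −0.67 (SE 0.18, edgeR adjusted p = 0.084), and DESeq2 placed it past the threshold (adjusted p = 0.01). Cdh22, which is known from brain and pituitary, was higher in every mutant than in every control, at 431.5, 475 and 435 against 500.2, 506.5 and 582 in the Islet1Cre mutants and 569, 513 and 513 in the Dlx5/6::Cre mutants. The gap was small, with a log2 fold change of 0.24 (SE 0.10, edgeR adjusted p = 0.3). Over all tested genes, 7.7% had all 6 mutants on one side of all 3 controls, and among the 31 there were 9. Cdh10, Cdh11, Cdh24, Cdh6, Cdh12 and Cdh18 had log2 fold changes between −0.23 and 0.12 in the mean of both mutants. In single mutants they were further from 0, at −0.49 for Cdh10 in the Islet1Cre mutants (edgeR adjusted p = 0.25), and at 0.38 for Cdh6 and −0.34 for Cdh24 in the Dlx5/6::Cre mutants (edgeR adjusted p = 0.51 and 0.39). Of these 6 genes, Cdh11, a cadherin of mesenchymal cells that neurons also express, was the most abundant besides Cdh24, with an interval of −0.43 to 0.34 in the mean of both mutants.

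Cdh13, or T-cadherin, lacks a cytoplasmic domain and is held in the membrane by a GPI anchor. It lies at chr8:118283733-119324921 on the plus strand (ENSMUSG00000031841). Its controls were tightly grouped, at 6053, 5746 and 5899 normalised read counts. The Islet1Cre mutants held 2809, 2111 and 3334 and the Dlx5/6::Cre mutants 1674, 3085 and 3032. No mutant reached the lowest control, and the lowest of all was Dlx5/6::Cre replicate 1. Cdh13 fell by 1.15 on the log2 scale in the mean of both mutants (SE 0.18, edgeR adjusted p = 0.0072), a fold change of 0.45. It fell by 1.11 in the Islet1Cre mutants and by 1.18 in the Dlx5/6::Cre mutants (edgeR adjusted p = 0.042 and 0.019).

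**Figure D3:**
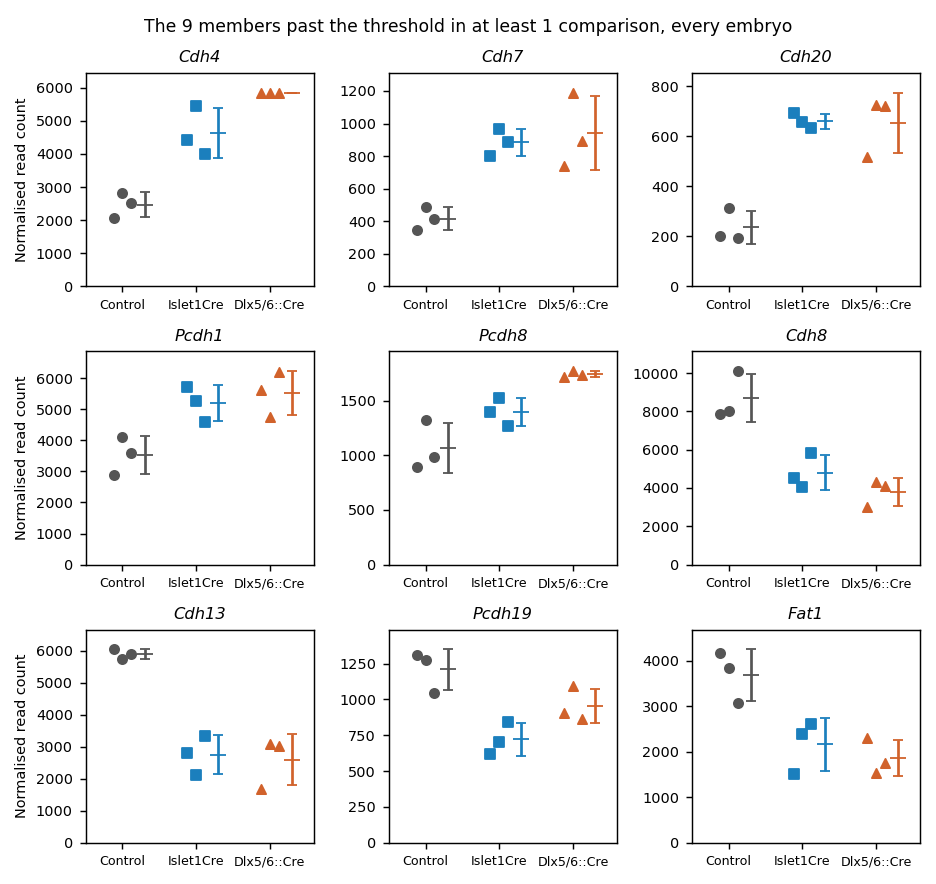
Normalised read count of the 9 genes past the threshold in at least 1 comparison, in every embryo, with the mean and SD of 3 embryos beside the points. Cdh4, Cdh7, Cdh20 and Pcdh1 are higher in all 6 mutants than in all 3 controls, Cdh8, Cdh13 and Fat1 are lower in all 6, and in Pcdh8 and Pcdh19 the groups overlap.

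Of the delta-1 protocadherins, Pcdh1 rose and Pcdh7 and Pcdh9 did not pass the test. Pcdh1 (ENSMUSG00000051375, chr18:38185914-38212053, minus strand) is expressed in neurons and in vessels. Its controls held 2874, 4110.2 and 3609 normalised read counts, the Islet1Cre mutants 5734, 5265 and 4576 and the Dlx5/6::Cre mutants 5611, 4763 and 6193. The groups did not overlap, although the lowest mutant was close to the highest control. The log2 fold change in the mean of both mutants was 0.60 (SE 0.12, edgeR adjusted p = 0.029). In the Dlx5/6::Cre mutants it was 0.64 (adjusted p = 0.037 in edgeR) and in the Islet1Cre mutants 0.55 (adjusted p = 0.12). Summed counts of 6 endothelial markers were 3735 to 4950 in the controls and 3601 to 4463 in the mutants, and none of these markers passed the test.

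Pcdh7, or NF-protocadherin, binds a phosphatase and is known for axon growth. It held 1502, 1239 and 1225.5 normalised read counts in the controls. The Islet1Cre mutants held 969, 1005 and 1063 and the Dlx5/6::Cre mutants 555, 1029.9 and 982, all 6 below the lowest control. Its log2 fold change was −0.51 (SE 0.16, edgeR adjusted p = 0.17), and without Dlx5/6::Cre replicate 1, its lowest embryo, it was −0.39 with an adjusted p of 0.021. Pcdh9 held 435, 608 and 594.5 normalised read counts in the controls, 522, 637 and 537 in the Islet1Cre mutants and 786, 825 and 689 in the Dlx5/6::Cre mutants. The Islet1Cre mutants overlapped with the controls and the Dlx5/6::Cre mutants were above both. Its log2 fold change was 0.05 in the Islet1Cre mutants and 0.49 in the Dlx5/6::Cre mutants (edgeR adjusted p = 0.999 and 0.12). In the Dlx5/6::Cre mutants, DESeq2 placed both Pcdh7 and Pcdh9 past the threshold (adjusted p = 0.031 and 0.036).

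The delta-2 protocadherins went in both directions, with Pcdh8 higher and Pcdh19 lower. Pcdh8 (ENSMUSG00000036422, chr14:79766775-79771312, minus strand), also called arcadlin, is known for the removal of Cdh2 from active synapses. It held 892, 1326 and 987 normalised read counts in the controls, 1399.9, 1520.3 and 1269 in the Islet1Cre mutants and 1717, 1773 and 1733 in the Dlx5/6::Cre mutants. The Dlx5/6::Cre mutants were above all controls, while the Islet1Cre mutants overlapped with Control 2. The log2 fold change was 0.54 in the mean of both mutants (SE 0.12, edgeR adjusted p = 0.035), 0.70 in the Dlx5/6::Cre mutants (adjusted p = 0.022) and 0.39 in the Islet1Cre mutants (adjusted p = 0.34).

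Pcdh19 (ENSMUSG00000051323, chrX:133582860-133688987, minus strand), an X-linked gene whose product binds Cdh2 and whose mutation causes epilepsy, had the opposite balance. Its normalised read counts were 1309.7, 1272 and 1048 in the controls, 619.8, 699.5 and 845 in the Islet1Cre mutants and 907, 1091 and 863 in the Dlx5/6::Cre mutants. The Islet1Cre mutants lay below all controls, and Dlx5/6::Cre replicate 2 lay within the control range. Pcdh19 fell by 0.55 on the log2 scale in the mean of both mutants (SE 0.12, edgeR adjusted p = 0.036) and by 0.75 in the Islet1Cre mutants (adjusted p = 0.036). In the Dlx5/6::Cre mutants the log2 fold change was −0.34 (edgeR adjusted p = 0.26). With the 2 libraries of both Xist and Y-linked transcripts left out, the fall in the mean of both mutants was still past the threshold (adjusted p = 0.037). That run kept Control 2, with Y-linked transcripts and almost no Xist, and no mutant of that kind, so sex still differed between the groups.

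Pcdh17, which is known for axon growth and for synapses in corticostriatal circuits, varied widely among the controls, at 641, 1806 and 2948 normalised read counts. The mutants held 2798, 4071.5 and 2565 in the Islet1Cre group and 2504, 3352 and 3764 in the Dlx5/6::Cre group. Control 1 was far below all other embryos, and Control 3 was within the range of the mutants. The log2 fold change of 0.82 therefore came with an SE of 0.36 (edgeR adjusted p = 0.37), and it was 0.42 without Control 1 (adjusted p = 0.73). Pcdh10, known for striatal and thalamic axon growth, was abundant and flat, from 5731 to 8003, with a log2 fold change of 0.05 and an interval of −0.19 to 0.29. Pcdh18, which recruits the adaptor Dab1, had a log2 fold change of 0.38 (edgeR adjusted p = 0.29). Pcdh15, of the inner ear hair bundle, and Pcdh20 were low and had log2 fold changes of 0.03 and −0.09.

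None of the 3 seven-pass cadherins passed the test, and Celsr3 could not be tested. Celsr3, known for the axon tracts of the forebrain, was listed at 0 to 9 raw reads per library, and whether its reads were assigned elsewhere was not tested. Celsr2 was steady at 3517 to 4909 normalised read counts, with a log2 fold change of −0.02 and an interval of −0.24 to 0.20. Celsr1, a polarity protein of progenitors, was at 259.6, 169 and 111 in the controls, 130.5, 224 and 156 in the Islet1Cre mutants and 1205, 95.6 and 114 in the Dlx5/6::Cre mutants. A single library, Dlx5/6::Cre replicate 1, was above all others, and it was the same library in which progenitor markers were high, with Mki67 at 3540 against 465 to 988 elsewhere. The log2 fold change in the Dlx5/6::Cre mutants was 1.38 with that library and −0.78 without it (edgeR adjusted p = 0.43 and 0.26), so the sign rested on 1 embryo. The part of the progenitor markers in the value of Celsr1 was not tested.

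**Figure D4:**
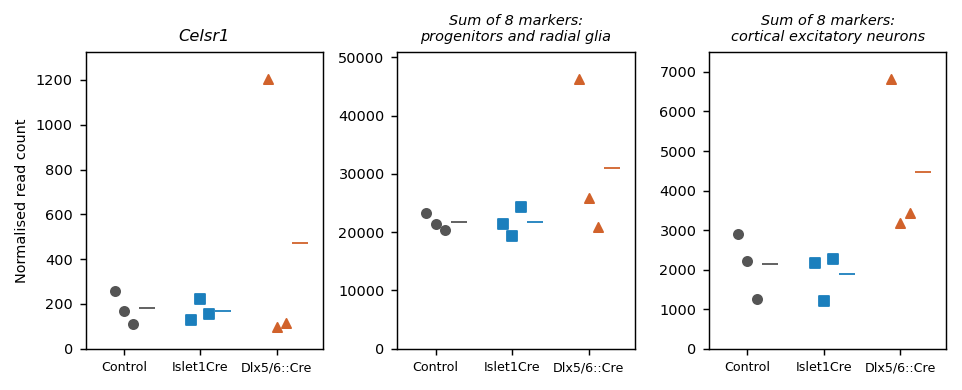
Normalised read count of Celsr1 (left) and summed counts of 8 progenitor and radial glia markers (middle) and 8 cortical excitatory neuron markers (right) in every embryo, with the group mean as a dash. Dlx5/6::Cre replicate 1 is the highest point in each panel, at 1205, 46318 and 6823.

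In the Fat and Dachsous group, Fat1 fell and Fat3, Fat4 and Dchs1 did not pass the test. Fat1 (ENSMUSG00000070047, chr8:44935447-45052257, plus strand), a giant cadherin that restrains growth through the Hippo pathway and acts in radial glia, held 4178, 3833 and 3069.6 normalised read counts in the controls. It was at 1510.0, 2386 and 2606 in the Islet1Cre mutants and 2311, 1538 and 1756 in the Dlx5/6::Cre mutants. All 6 mutants were below all 3 controls, Islet1Cre replicate 3 being the nearest to them. Fat1 fell by 0.88 on the log2 scale in the mean of both mutants (SE 0.17, edgeR adjusted p = 0.024) and by 0.98 in the Dlx5/6::Cre mutants (adjusted p = 0.034). In the Islet1Cre mutants its log2 fold change was −0.77 (edgeR adjusted p = 0.16). Progenitor marker sums were 20439 to 23271 in the controls and 19416 to 46318 in the mutants, and their part in the fall of Fat1 was not tested.

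Fat4 and its ligand Dchs1, which act as a pair in neuronal migration, differed from Fat1. Fat4 held 745, 677 and 668 normalised read counts in the controls, 636, 1096 and 784 in the Islet1Cre mutants and 1331, 815 and 923 in the Dlx5/6::Cre mutants, a log2 fold change of 0.41 in the mean of both (edgeR adjusted p = 0.38). Its highest embryo was again Dlx5/6::Cre replicate 1. Dchs1 had a log2 fold change of −0.09 with an interval of −0.38 to 0.19, and Fat3, known for the dendrites of amacrine cells, one of 0.07 with an interval of −0.15 to 0.30.

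Because Cdh8 fell while Cdh4 rose, their balance within each library changed. Per exon length, Cdh8 was 3.57, 2.68 and 3.78 times the level of Cdh4 in the controls. The ratio was 0.96, 0.692 and 1.36 in the Islet1Cre mutants and 0.478, 0.696 and 0.66 in the Dlx5/6::Cre mutants. Cdh8 was thus above Cdh4 in all controls and below it in 5 of 6 mutants, the exception being Islet1Cre replicate 3. The ratio of Cdh20 to Cdh8 moved from 0.0369 to 0.0749 in the controls to 0.21 to 0.339 in the mutants. These ratios restate the changes above and were not tested.

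Between the 2 mutants, none of the 31 genes and none of the 16368 genes passed the threshold in edgeR, a share of 0%. At an unadjusted p below 0.05, there were 844 genes in all and 5 of the 31, namely Cdh4, Cdh10, Pcdh8, Pcdh9 and Pcdh19. In DESeq2, 17 genes passed, none of them among the 33. For Cdh4, the Dlx5/6::Cre mutants exceeded the Islet1Cre mutants by 0.34 on the log2 scale (interval 0.06 to 0.61, edgeR adjusted p = 0.87). Cdh10 differed by 0.52 (interval 0.20 to 0.85) and Pcdh19 by 0.41 (interval 0.10 to 0.72), at the same adjusted p. For Cdh20 the interval was −0.42 to 0.40 and for Cdh13 −0.55 to 0.40, which leaves room for differences in either direction.

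Genes that work with these cadherins were taken from 5 lists of 71 genes, of which 61 were tested. In the mean of both mutants, 4 rose and 4 fell, beside the 2.76% of all genes given above. These lists, too, were chosen with earlier results of these data known. Among 20 further genes of the superfamily, 11 were tested and 2 rose. Dchs2, a Dachsous relative, went from 443, 566 and 535 normalised read counts in the controls to 877, 1146 and 891 in the Islet1Cre mutants and 764, 788 and 1053 in the Dlx5/6::Cre mutants (log2 0.84, SE 0.14, edgeR adjusted p = 0.01). Dsg2, a desmosomal cadherin, was near the limit of detection in the controls, at 5.4, 12.2 and 6.7, and reached 42.1, 56.8 and 46.5 and 10.8, 41 and 46.5 in the mutants (log2 2.27, SE 0.47, edgeR adjusted p = 0.031). Dlx5/6::Cre replicate 1 lay within the control range of Dsg2, and in 8 of the 9 fits that left out 1 library each the call was lost.

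Of 17 catenins and other cytoplasmic or junctional partners, all tested, 2 fell. Ctnnd2, the neuronal delta-catenin that binds the juxtamembrane part of classical cadherins, was at 5198, 5613 and 5234 in the controls, 4190.2, 4281 and 4344 in the Islet1Cre mutants and 4313, 4362 and 4316 in the Dlx5/6::Cre mutants. The groups were narrow and did not overlap (log2 −0.32, SE 0.05, edgeR adjusted p = 0.012). Nectin3, an adhesion molecule that recruits afadin beside cadherins, was at 3807, 3342 and 2462 in the controls, 1986, 2020.5 and 2259 in the Islet1Cre mutants and 1601, 2331 and 2108.5 in the Dlx5/6::Cre mutants (log2 −0.65, SE 0.14, edgeR adjusted p = 0.035). The alpha- and beta-catenins were among the 15 that did not pass. Ctnnb1, or beta-catenin, ranged from 21226 to 28964 normalised read counts over the 9 embryos.

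Among 12 core polarity partners of the Celsr proteins, 11 were tested and 2 fell. Ankrd6, or Diversin, which binds Dishevelled, had the largest fall of the partner genes, from 2974, 1892 and 1910.4 in the controls to 652, 738 and 895 in the Islet1Cre mutants and 1294, 750.3 and 759 in the Dlx5/6::Cre mutants (log2 −1.43, SE 0.20, edgeR adjusted p = 0.0038). Prickle1, a cytoplasmic core polarity protein, was at 345, 341 and 274, 166, 150.4 and 174 and 154, 239 and 201 in the same order (log2 −0.84, SE 0.15, edgeR adjusted p = 0.018). Both were lower in all 6 mutants than in any control. Fzd6 was listed at 0 in every library. Of 12 Fat and Dachsous partners, all tested, Fjx1 alone passed. Fjx1, the four-jointed kinase that phosphorylates Fat and Dachsous cadherins, rose from 1552, 1663.5 and 1457 to 2328, 1842 and 2278 in the Islet1Cre mutants and 3158, 2905 and 2655 in the Dlx5/6::Cre mutants (log2 0.68, SE 0.09, edgeR adjusted p = 0.0038). Of 10 actin regulators bound by delta-2 protocadherins, all tested, Dab1, an adaptor of the Reelin receptors, was the single one past the threshold. It held 481, 403 and 435 in the controls, 442, 589.5 and 578 in the Islet1Cre mutants and 922, 727 and 742 in the Dlx5/6::Cre mutants (log2 0.57, SE 0.13, edgeR adjusted p = 0.042). The WAVE complex subunits and the kinase Taok2, the rest of that list, did not pass. Taken singly, Dchs2, Ctnnd2 and Ankrd6 passed in both mutants. Nectin3 passed in neither the Islet1Cre nor the Dlx5/6::Cre mutants (edgeR adjusted p = 0.15 and 0.067). Dsg2 and Prickle1 passed in the Islet1Cre mutants only (edgeR adjusted p = 0.082 and 0.087 in the Dlx5/6::Cre mutants). Fjx1 passed in the Dlx5/6::Cre mutants only (edgeR adjusted p = 0.089 in the Islet1Cre mutants). Dab1 did not pass in the Islet1Cre mutants. In the mean of both mutants, Ankrd6 and Fjx1 passed in all 9 fits that left out 1 library each. The call was lost in some of them for Ctnnd2 (without Control 2 or 3, adjusted p up to 0.075), Dchs2 (without Control 1 or 3, up to 0.073) and Prickle1 (without Control 1 or 2 or Islet1Cre replicate 1 or 2, up to 0.1). Nectin3 lost it in 6 of the 9 and Dab1 in 7 of the 9, with adjusted p up to 0.21 and 0.18.

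**Figure D5:**
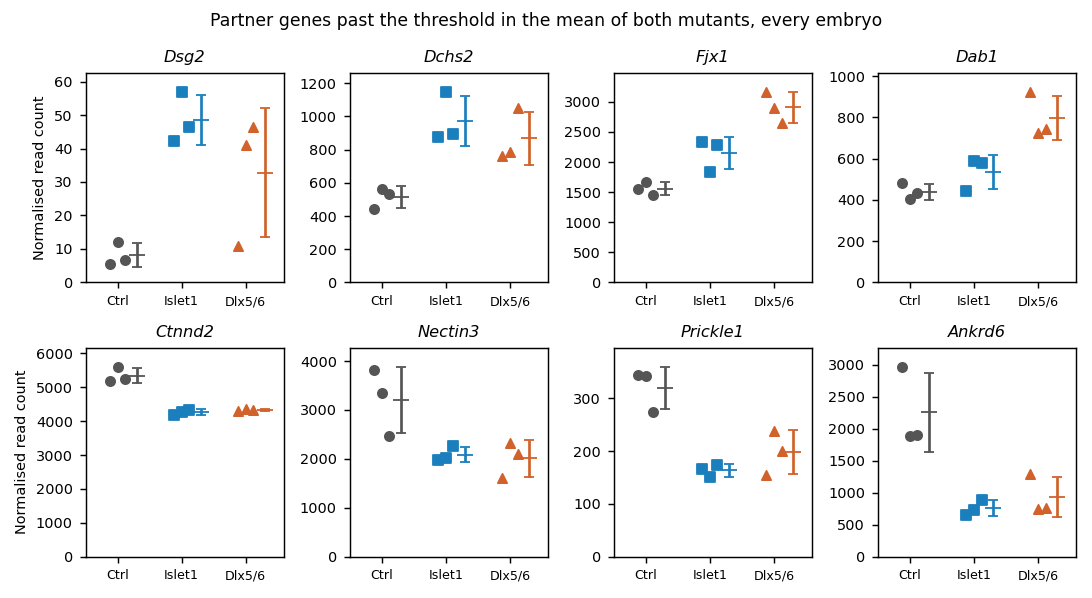
Normalised read count of the 8 partner genes past the threshold in the mean of both mutants, in every embryo, with the mean and SD of 3 embryos beside the points (Ctrl, Control; Islet1, Islet1Cre mutants; Dlx5/6, Dlx5/6::Cre mutants). Dsg2, Dchs2, Fjx1 and Dab1 are in the upper row and have higher mutant means, and Ctnnd2, Nectin3, Prickle1 and Ankrd6 are in the lower row and have lower ones.

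Of 66 tested markers in 13 lists, Foxp1, a transcription factor of spiny projection neurons, alone passed the test in the mean of both mutants, at 17975, 19407 and 21499 normalised read counts in the controls, 15717, 15435 and 15725 in the Islet1Cre mutants and 11495, 13794 and 15471 in the Dlx5/6::Cre mutants (log2 −0.43, SE 0.09, edgeR adjusted p = 0.035). Over all genes, 2.76% passed in this comparison. Taken singly, Foxp1 passed in the Dlx5/6::Cre mutants (log2 −0.53, edgeR adjusted p = 0.031) but not in the Islet1Cre mutants (log2 −0.33, edgeR adjusted p = 0.3). The sums of the cortical and microglia lists did not overlap between the Dlx5/6::Cre mutants and the controls. For microglia they were 2372 to 2558 in these mutants and 2149 to 2363 in the controls. The sums of the 5 direct pathway markers did overlap, at 19580 to 25049 in these mutants and 17715 to 27309 in the controls. The 4 direct pathway markers other than Ebf1 summed to 9769.7 to 14431 in the controls, 11062 to 12292 in the Islet1Cre mutants and 7806 to 9737 in the Dlx5/6::Cre mutants, all 3 of which were below every control. None of these 4 passed the test, with log2 fold changes in the Dlx5/6::Cre mutants of 0.53 for the dopamine receptor Drd1, −1.12 for the neuropeptide precursor Tac1, −0.77 for Pdyn and −0.40 for Isl1 (edgeR adjusted p = 0.29, 0.078, 0.23 and 0.082). The 8 cortical excitatory markers all had positive log2 fold changes in the Dlx5/6::Cre mutants, with a median of 1.01, and 2 of them were higher in all 3 of these embryos than in the other 6. The 8 progenitor markers were all positive too, with a median of 0.64, but none separated these embryos from the others. Their sum was 46318 in Dlx5/6::Cre replicate 1, and 25791 and 20846 in replicates 2 and 3, against 20439 to 23271 in the controls. The median in the Islet1Cre mutants was −0.27 for the cortical and 0.02 for the progenitor markers. The sums of 6 indirect pathway markers were 15144 to 17258 in the controls and 15850 to 19887 in the mutants. Interneuron marker sums were 10388 to 12041 in the controls and 6174 to 11864 in the mutants, with Dlx5/6::Cre replicate 1 the lowest. Their part in the changes of the cadherins was not tested.

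The calls differed in how far they rested on single libraries. In the mean of both mutants, Cdh4, Cdh7, Cdh20, Cdh8 and Cdh13 passed the threshold in all 9 fits that left out 1 library each, with adjusted p up to 0.046 for Cdh13 without Control 1. Pcdh1, Pcdh8, Pcdh19 and Fat1 did not. Without Control 1 their adjusted p was 0.13, 0.16, 0.19 and 0.15, without Dlx5/6::Cre replicate 3 0.055, 0.068, 0.081 and 0.053, and without Islet1Cre replicate 2 0.073, 0.088, 0.095 and 0.052. Each of the 4 also lost its call in 1 to 3 other such fits, among those without Control 2, Control 3, Dlx5/6::Cre replicate 2 or Islet1Cre replicate 1. All 9 kept theirs without Dlx5/6::Cre replicate 1, the library with high progenitor markers. With the embryo code prefix in the fit, the first 5 genes kept their calls in the mean of both mutants and the other 4 did not.

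In the Islet1Cre mutants, none of the 33 genes passed without Control 1, Islet1Cre replicate 1 or Islet1Cre replicate 2, where 31, 19 and 15 of all genes did, against 159 with all libraries. Without Control 3, 2 passed beside 55 of all genes, and without Control 2, 3 passed beside 62. Without Dlx5/6::Cre replicate 3, 3 passed beside 103, and without Islet1Cre replicate 3, 4 passed beside 101. Of the 9 such fits, Cdh4 and Cdh20 each passed in 6, Cdh7 in 4, Cdh8 and Pcdh19 in 3 and Cdh13 in 2. The edgeR adjusted p reached 0.22 for Cdh8 and 0.21 for Cdh13. Against the 2 controls of code IE alone, the same code as the Islet1Cre mutants, 6 passed beside 169 of all genes. In the Dlx5/6::Cre mutants, 4 passed without Control 1, 5 without Control 3 and 5 without Dlx5/6::Cre replicate 3, beside 143, 187 and 170 of all genes, against 392 with all libraries. Against the single control of code D, none passed, where 2 of all genes did. Cdh4 then had a log2 fold change of 1.21 and Cdh8 of −1.41 (edgeR adjusted p = 0.14 and 0.37).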

How the data were processed

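Striatal RNA from 9 mouse embryos was sequenced from stranded poly(A) libraries with 75 bp reads. Per the labels and the methods, the authors mapped reads to mm10 with STAR 2.4.0k, removed multiple matches, and deposited whole-number counts per gene from HTSeq 0.5.3 on Ensembl 81. The strand setting of the counting is not given in the sources used here, so reads of a gene and of one overlapping it on the other strand might not be told apart. The highest such partner of any of the 9 called genes held 1.8% of its count (Pcdh8).

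Counts were filtered with filterByExpr (minimum count 10), scaled by TMM and fitted over all 9 libraries with edgeR 4.0.16 (R 4.3.3), with adjusted p over 16368 genes. Normalised read counts are counts divided by DESeq2 1.42.0 size factors. SE is the log2 fold change over the root of F. Exon lengths and positions come from GENCODE M21. The fit was tested on simulated data. Genes named are all 33, plus partners past the threshold in the mean of both mutants. Ctnnb1, Fzd6, Taok2, Foxp1, Mki67 and the direct pathway markers named were chosen after their values were seen. The 33 genes and all lists were chosen with earlier results of these data known. Nothing says that embryos came from separate litters, and p-values measure the spread between these embryos.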

Additional observations from a re-analysis of the deposited data

How the results depend on the processing

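Among the 9 called genes, Pcdh7, Cdh22, Cdh9, Pcdh17 and the 8 partner genes, no log2 fold change turned its sign under the alternatives run, and that of Celsr1 in the Dlx5/6::Cre mutants ranged from −0.78 without Dlx5/6::Cre replicate 1 to 1.87 over the fits that left out 1 library each. Of the 33 genes, edgeR called 6, 8, 0 and 9 in the Islet1Cre mutants, the Dlx5/6::Cre mutants, the comparison of both mutants, and the mean of both mutants. Leaving out 1 library at a time gave 0 to 7, 4 to 8, 0 and 5 to 10 of them, and, over all genes, 15 to 397, 143 to 613, 0 to 4 and 178 to 775 in place of 159, 392, 0 and 452. DESeq2 called 395, 873, 17 and 784 genes. Without the filter, 311, 708 and 13 genes passed in the first 3 comparisons, and with only the groups compared 259, 181 and 2. Adjusted for the embryo code prefix, 61, 32, 1 and 278 genes and 2, 1, 0 and 5 of the 33 passed, and within code D, 2 genes and 0 of the 33 passed in the Dlx5/6::Cre mutants. Leaving out the 2 libraries with both Xist and Y-linked transcripts, chosen after seeing the data, gave 52, 138, 3 and 170 genes. Of the 33, 2, 3, 0 and 6 passed in that run. In the mean of both mutants, Cdh7, Pcdh1 and Pcdh8 lost their calls. The cause was not tested.

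Replicate numbers did not pair the embryos (mean correlation −0.0235 for the same number, 0.0122 for different numbers, 4 of 9 embryos best with their own). With the replicate block, 143, 363, 0 and 367 genes and 5, 6, 0 and 6 of the 33 passed. Folds of low genes such as Cdh3 and Dsg2 are limited by depth, and 3 embryos a group limit all calls.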
